A study of Mus musculus with 12 samples.

Results

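The genes described here are 7 dual-specificity phosphatases that switch off MAP kinases (Dusp1, Dusp2, Dusp4, Dusp5, Dusp6, Dusp8 and Dusp10) and 2 inhibitors of Ras signaling (Spry1 and Spred2). They were taken by symbol from the 52535 genes counted, and all 9 were present. Counts came from 3 T-ALL cell lines, 240, 242 and 352, each grown from a tumor of 1 mouse carrying both an Akt2 and a Dlx5 transgene. Both transgenes are driven by the Lck promoter, which is active in immature T cells, and the Akt2 form is myristoylated and thereby constitutively active. Each line was sequenced once after β-Catenin/Tcf Inhibitor II, a small molecule that carries the prefix PKF in the sample names and disrupts the complex of β-catenin with Tcf, and once as a placebo-treated control, so each group holds 3 libraries and each line has 1 library per group. Control and treated cells of a line share the transgenes and the animal of origin. The labels give neither dose nor duration nor the age of the mice, although the study's text gives a dose and a duration.

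MAP kinases are activated by a relay of kinases that runs from Ras through Raf and MEK to ERK, or, in response to stress, through other kinases to JNK and p38. Dusp proteins remove the activating phosphates from the threonine and tyrosine of the MAP kinase itself, and each has its own preference among ERK, JNK and p38. Sprouty and Spred proteins act further up and limit the activation of Ras and Raf. Many of these inhibitors are transcribed in response to the very pathway they restrain, and in thymocytes the Ras to ERK relay carries signals from the T cell receptor.

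The promoters of Dusp8, Dusp1 and Dusp5 are shown. For Dusp8 and Dusp5 all treated values lay above all control values, as for 3.09% of the genes tested, and Dusp8 and Dusp1 share a motif. Each stretch runs from 250 to 51 bases before the RefSeq transcription start (GRCm38.p6), 5′ to 3′ on the strand of the gene. Capitals mark the cAMP response element TGACGTCA in Dusp8 and Dusp1, and the CArG box, the element bound by serum response factor, in Dusp5.
Dusp8, chr7:142095335-142095534, minus strand: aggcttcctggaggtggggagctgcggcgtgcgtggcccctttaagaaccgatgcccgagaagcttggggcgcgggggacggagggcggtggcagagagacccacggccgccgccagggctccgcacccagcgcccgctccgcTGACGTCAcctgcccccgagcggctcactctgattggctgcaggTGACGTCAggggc
Dusp1, chr17:26508523-26508722, minus strand: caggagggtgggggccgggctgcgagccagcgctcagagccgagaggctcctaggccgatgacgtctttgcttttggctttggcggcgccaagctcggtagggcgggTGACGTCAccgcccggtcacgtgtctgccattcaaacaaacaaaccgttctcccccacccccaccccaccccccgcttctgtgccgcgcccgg
Dusp5, chr19:53528895-53529094, plus strand: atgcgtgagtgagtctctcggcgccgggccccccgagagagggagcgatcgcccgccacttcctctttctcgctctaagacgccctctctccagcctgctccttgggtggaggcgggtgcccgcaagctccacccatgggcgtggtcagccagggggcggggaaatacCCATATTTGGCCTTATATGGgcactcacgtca

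Dusp8 holds the cAMP response element at 2 places, starting 107 and 63 bases before the RefSeq start, and Dusp1 holds it at 1 place, 143 bases before. The Dusp8 model used for the counts begins further upstream, at base 142095843 of the minus strand. The Dusp8 stretch shown therefore lies within that model, and its positions hold for the RefSeq start only. Windows of 300 bases, ending 50 bases after the start, were searched on both strands. Promoters of 1 chromosome, which holds no member, were left out of the search. TGACGTCA was present in 1.79% of 32851 such mouse promoters and in 2 of the 8 member promoters matched in the table. Its shorter core TGACG, which lies within every TGACGTCA, was present in 20.8% of promoters and in those of Dusp1, Dusp2, Dusp5, Dusp8 and Spred2. The CArG box was present in 1.63% of promoters, and among the members in Dusp5, with 2 adjoining copies that start 82 and 72 bases before the start. The Tcf/Lef letters CTTTGA (16% of promoters) and the AP-1 letters TGANTCA (7.81%) were in none of the 8 member windows. These matches describe the letters only.

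Depth differed among the 6 libraries. Total counts were 604984 to 13766638 in treated libraries and 3354980 to 13221186 in controls, and the lowest, the treated library of line 242, also had 11.8% of its counts in mitochondrial genes, against 1.84% to 3.10% in the other 5. It held 93.3% of its counts in the genes kept for the 3-line test, against 99.5% to 99.8% in the others. There, 3 counts correspond to 5.46 CPM, the unit of library-scaled counts used here, with TMM scaling factors, so the results on treatment are also given over lines 240 and 352 alone. The 9 T lymphocyte markers summed to 1890 to 4785 CPM in treated libraries and 2913 to 4813 CPM in controls, and each was detected in both groups, although Ptcra had 0 counts in the treated library of line 242. In lines 240 and 352, 2 of the 9 were lower after treatment, Cd3d (log2 −0.66 ± 0.14, edgeR adjusted p = 0.00931) and Dntt (−1.27 ± 0.30, adjusted p = 0.0179), and 0 were higher. Of all genes tested in these lines, 5.92% were lower and 5.01% higher. Fibroblast markers (Col1a1, Col1a2, Dcn, Pdgfra) summed to 0.900 to 41.9 CPM in treated libraries and 0.220 to 0.317 CPM in controls, and thymic epithelial markers (Epcam, Krt5, Krt8, Foxn1) to 0.315 to 27.3 CPM and 0 to 0.220 CPM. The high end of both ranges was the treated library of line 242, with 14 Col1a1 and 11 Epcam counts. The other markers of these lists were low there, with 5 counts of Pdgfra, 4 of Foxn1, 3 of Col1a2 and 1 of Dcn. Krt5 and Krt8 had 0 counts in that library, so the markers of neither list are read as a cell type. The part of any such cells, of depth and of the mitochondrial share in the values of line 242 was not tested. In such bulk libraries, fewer cells of a type and less RNA per cell cannot be told apart.

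Among the phosphatases with a preference for JNK and p38, Dusp8 was close to silent in control cells and was detected in all 3 lines after the inhibitor. It lies at chr7:142079490-142095843 (mm10, minus strand). Dusp8 had 8.51, 74.6 and 1.18 CPM in treated lines 240, 242 and 352 (27, 41 and 17 counts), against 0.251, 0.634 and 0.0734 CPM in their controls (1, 2 and 1 counts). Every treated library stood above every control, as for 3.09% of the genes tested. The treated level differed widely among lines and averaged 28.1 ± 40.4 CPM against 0.319 ± 0.287 CPM in controls (SD, n = 3 each).

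The treated-over-control ratio of CPM was 34.0 in line 240 (exact 95% counting interval 5.60 to 1390), 118 in line 242 (30.5 to 1004) and 16.0 in line 352 (2.51 to 670). The intervals are wide because each control holds only 1 or 2 counts, and they cover counting error only. Over all 3 lines the log2 fold change was 5.53 ± 0.80 (SE), rank 14 of 11064 genes, and it did not pass (edgeR quasi-likelihood test, Benjamini-Hochberg adjusted p = 0.67). In lines 240 and 352 the log2 fold change was 4.47 ± 0.89 (edgeR adjusted p = 0.00795), on the far side of the threshold of 0.05. Dusp8 passed the filter on low counts only through its treated libraries. Its rank is thus no support for a rise beyond the counts themselves, and neither is this call. It was also lost without the line as a block (adjusted p = 1), a fit that lost the calls of all genes and not of Dusp8 alone. With DESeq2 without independent filtering the call was lost too (adjusted p = 0.251).

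Genes with such a pattern of counts were listed. Of 37778 genes with at most 2 counts in each control, 4 reached at least 10 counts in each treated library (0.0106%), namely Cd80, a costimulatory ligand, Epha2, an ephrin receptor, Serpinc1, which encodes antithrombin, and Dusp8. Only 28529 genes had a count in any library, so the 37778 include genes with 0 counts throughout. The share is low in part for that reason, and no rarity is read from it. The limits were chosen after the values of Dusp8 were seen and around them, so its place among the 4 is given by the choice. The exons of Dusp8 overlap those of Gm32786 on the other strand, which had 1 count in the treated library of line 242 and 0 in every other library. Of the fibroblast and epithelial markers, the highest of each list in treated line 242, Col1a1 and Epcam, had more counts after treatment in lines 240 and 352 too. Col1a1 had 5 and 9 counts in treated lines 240 and 352, against 0 and 2 in their controls, and Epcam had 1 and 10 counts, against 0 and 3. Other markers seen in treated line 242 did not repeat this. Foxn1 had 0 counts in both groups of lines 240 and 352. Pdgfra had 0 and 2 counts in treated lines 240 and 352, against 1 and 0 in their controls. The part of these markers in the Dusp8 values was not tested.

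Dusp10, the other phosphatase with a preference for JNK and p38 (chr1:184013302-184075636, plus strand), was expressed in every library. It had 51.4, 89.2 and 11.3 CPM in treated lines 240, 242 and 352, against 44.9, 42.5 and 11.7 CPM in their controls. The groups overlapped, and line 242 alone stood apart, with a ratio of 2.10 (counting interval 1.48 to 2.93), while the intervals of lines 240 and 352 included 1. The log2 fold change was 0.37 ± 0.26 over 3 lines (edgeR adjusted p = 0.84) and 0.09 ± 0.17 when line 242 was left out (adjusted p = 0.791), so it passed in neither fit.

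**Figure D1:**
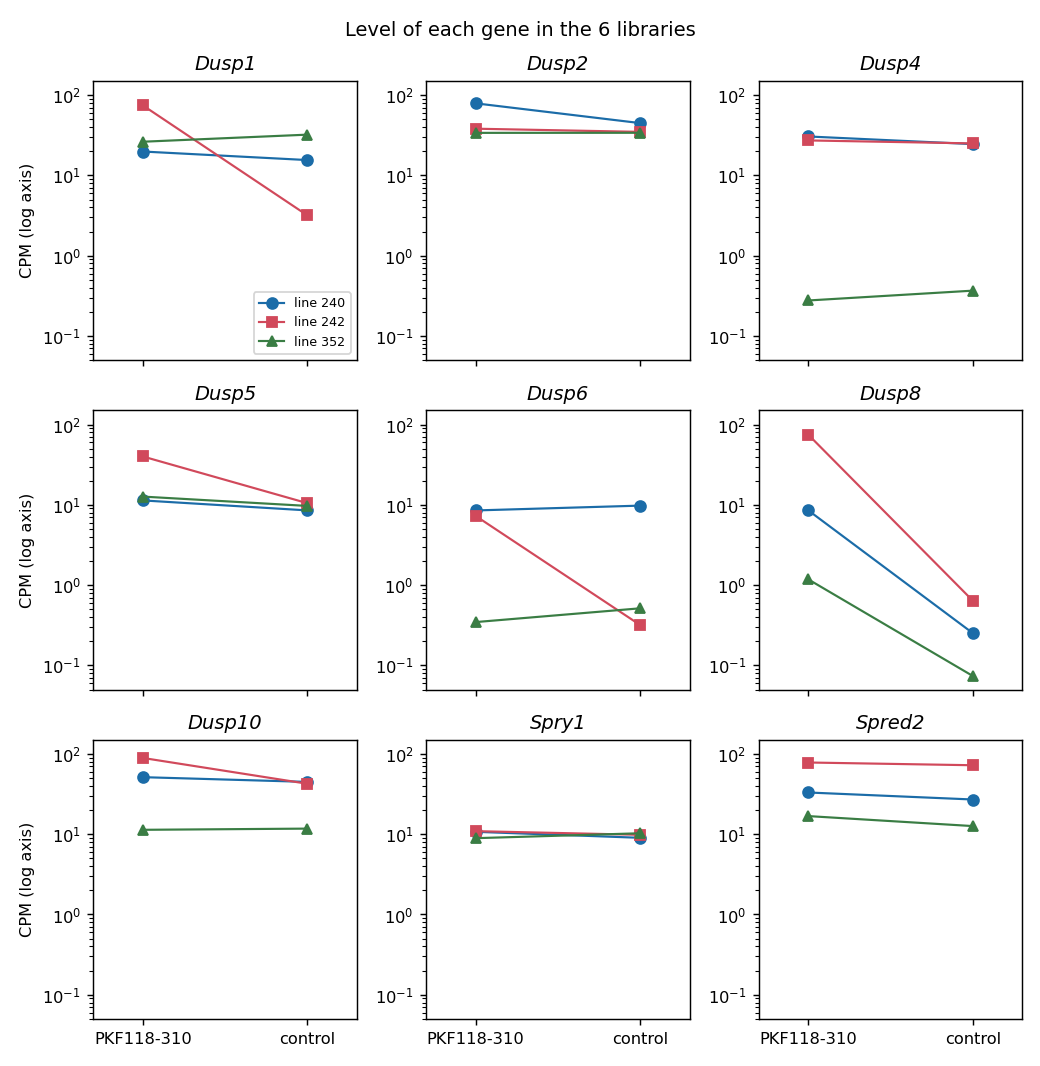
CPM of each of the 9 genes on a log axis, in PKF libraries (left) and control libraries (right), with 1 point per library and a line joining the libraries of a cell line. Dusp8 lay between 1.18 and 74.6 CPM in treated libraries and between 0.0734 and 0.634 CPM in controls, while Dusp4 was at 0.277 and 0.367 CPM in treated and control line 352.

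Dusp5 and Dusp6 act on ERK with high selectivity, Dusp5 in the nucleus and Dusp6 in the cytoplasm. Dusp5 (chr19:53529109-53542431, plus strand) had 11.3, 40.0 and 12.7 CPM in treated lines 240, 242 and 352, against 8.52, 10.5 and 9.69 CPM in their controls. All 3 treated libraries lay above all 3 controls, as for 3.09% of the genes tested. The gap was small in lines 240 and 352 and clear in line 242. The ratios were 1.33 (counting interval 0.810 to 2.19), 3.82 (2.12 to 6.76) and 1.31 (1.04 to 1.65). Dusp5 did not pass over 3 lines (log2 0.86 ± 0.43, edgeR adjusted p = 0.827) or without line 242 (0.41 ± 0.25, adjusted p = 0.346). Its exons overlap those of AC137853.2 on the other strand, which was not analysed here. In its control library of line 240 the lanes held 25 and 9 counts (exact binomial p = 0.00554), and 3 of the 54 pairs of lanes for these genes differed at an unadjusted p below 0.05.

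Dusp6 (chr10:99263231-99267489, plus strand) had most of its counts in line 240. Levels were 8.51, 7.28 and 0.346 CPM in treated lines 240, 242 and 352 (27, 4 and 5 counts), against 9.77, 0.317 and 0.514 CPM in their controls (39, 1 and 7 counts). In line 240 the groups differed by less than counting error, with a ratio of 0.871 (0.513 to 1.46). The ratio of 22.9 in line 242 rested on 4 and 1 counts (2.27 to 1130). The log2 fold change was 0.62 ± 1.04 over 3 lines (edgeR adjusted p = 0.946). Without line 242 it was −0.28 ± 0.54 (adjusted p = 0.793), and its sign thus turned on that line.

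Dusp1, Dusp2 and Dusp4 are nuclear, inducible phosphatases with broader substrates. Dusp1, an immediate early gene that acts on p38, JNK and ERK (chr17:26505590-26508519, minus strand), had 19.9, 74.6 and 26.3 CPM in treated lines 240, 242 and 352, against 15.5, 3.17 and 32.2 CPM in their controls. The lines went different ways. Line 242 had a ratio of 23.5 (counting interval 11.6 to 52.7), line 352 a ratio of 0.816 (0.709 to 0.938), and the interval of line 240 included 1 (1.28, 0.886 to 1.84). With 1 library per line and group, the difference in response between lines could not be tested.

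Over 3 lines Dusp1 had a log2 fold change of 1.08 ± 0.93 (edgeR adjusted p = 0.858), and without line 242 it was −0.07 ± 0.19 (adjusted p = 0.868), so the positive value came with line 242. The control of line 242 held 10 counts of Dusp1, the fewest of any library, and the treated library 41. Exons of a longer annotated Dusp1 model overlap Ergic1 on the other strand, which had 83.7 to 156 CPM in treated libraries and 114 to 128 CPM in controls, and the strand setting of the counting is not given in the sources used here.

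Dusp2, known from activated lymphocytes (chr2:127336159-127338376, plus strand), had 79.1, 38.2 and 33.9 CPM in treated lines 240, 242 and 352, against 44.9, 34.9 and 34.0 CPM in their controls. The treated library of line 240 was the highest and the other 5 lay close together. Its ratio of 1.76 in line 240 (1.45 to 2.15) lay outside counting error, whereas the ratios in line 242 (1.10) and line 352 (0.998) did not. Dusp2 did not pass over 3 lines (log2 0.33 ± 0.23, edgeR adjusted p = 0.84) or without line 242 (0.37 ± 0.18, adjusted p = 0.206).

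Dusp4, which acts on ERK and JNK (chr8:34807297-34819894, plus strand), differed far more between lines than between groups. It had 30.6, 27.3 and 0.277 CPM in treated lines 240, 242 and 352 (97, 15 and 4 counts), against 24.6, 25.1 and 0.367 CPM in their controls (98, 79 and 5 counts). Line 352 was nearly without Dusp4 in both groups, although its libraries were the deepest. The treatment ratios were 1.24, 1.09 and 0.754, each with an interval that included 1, and the log2 fold change was 0.13 ± 0.30 over 3 lines (edgeR adjusted p = 0.967) and 0.25 ± 0.36 without line 242 (adjusted p = 0.713).

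**Figure D2:**
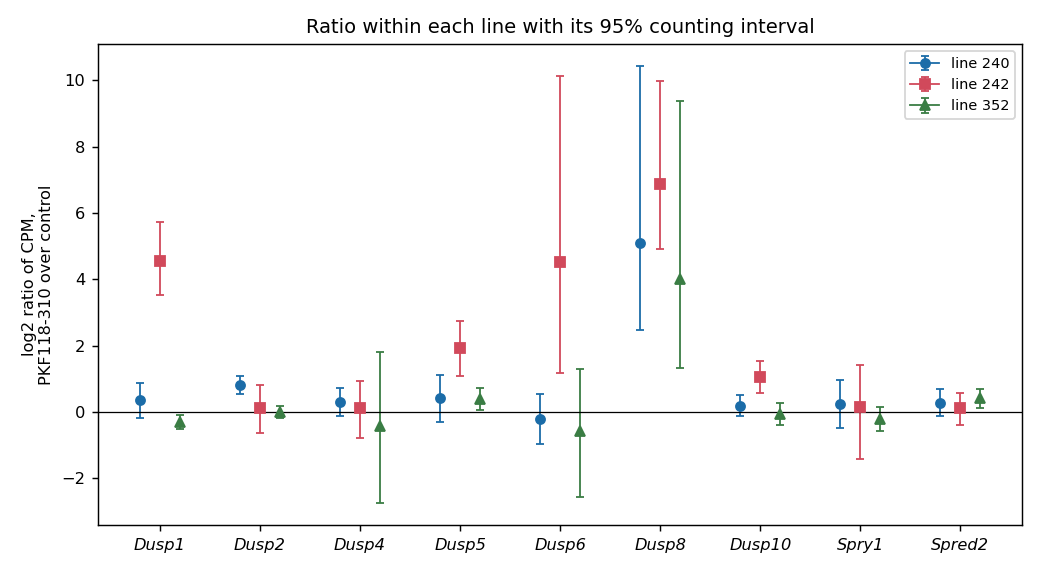
Log2 ratio of CPM, PKF over control, for each gene and cell line, with bars for the exact 95% counting interval of 1 library against 1. The intervals of Dusp8 lay above 0 in all 3 lines, those of Dusp1, Dusp5, Dusp6 and Dusp10 lay above 0 in line 242, and most others crossed 0.

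Of the inhibitors that act on Ras, Spry1, a Sprouty protein that dampens receptor signaling to ERK (chr3:37639947-37644598, plus strand), was the most even of the 9 genes. It had 10.7, 10.9 and 8.93 CPM in treated lines 240, 242 and 352, against 9.02, 9.83 and 10.3 CPM in their controls, or 10.2 ± 1.10 and 9.71 ± 0.636 CPM (SD, n = 3 each). The groups overlapped within this narrow range, and the log2 fold change was 0.05 ± 0.35 over 3 lines (edgeR adjusted p = 0.998) and −0.03 ± 0.27 without line 242 (adjusted p = 0.966). The treated library of line 242 contributed 6 counts. The exons of Spry1 overlap Gm42922 on the other strand, which had at most 3 counts in any library.

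Spred2, a membrane protein that recruits neurofibromin and keeps Ras from activating Raf (chr11:19924375-20024026, plus strand), had 33.1, 78.2 and 16.8 CPM in treated lines 240, 242 and 352, against 27.1, 72.3 and 12.6 CPM in their controls. It was higher after treatment in 3 of 3 lines, as were 14.7% of the genes tested, and by less than the spread between lines. The ratios were 1.22 (0.926 to 1.61), 1.08 (0.762 to 1.5) and 1.33 (1.09 to 1.63), and only that of line 352 lay outside counting error. The log2 fold change was 0.28 ± 0.17 over 3 lines (edgeR adjusted p = 0.832) and 0.37 ± 0.18 without line 242 (adjusted p = 0.226).

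Counted together, 0 of the 9 genes passed over 3 lines in either direction, where 0% of the 11064 genes tested were higher and 0% lower by edgeR's quasi-likelihood test. At an unadjusted p below 0.05 the count was 1 of the 9 and 637 of all genes, and DESeq2 called 148 and edgeR's likelihood ratio test 133 of all genes, with 1 member higher in each. In lines 240 and 352, 1 of the 9 was higher and 0 were lower, beside 5.01% of 11760 genes higher and 5.92% lower. The 1 was Dusp8, which was tested only because of its treated libraries, so nothing is read from this count. The median log2 fold change of the 9 was 0.37 over 3 lines and 0.25 in lines 240 and 352, against −0.01 over all genes tested in each fit. Dusp5, Dusp8 and Spred2 were higher in all 3 lines, as were 14.7% of the genes tested. For Dusp5 and Dusp8 the treated group lay wholly above the control, as for 3.09% of the genes tested.

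The lines themselves differed for 3 of the 9 genes when treatment was held as a term, against 7.15% of all genes tested (edgeR quasi-likelihood F test over the 3 lines). Dusp4 was 6.33 log2 units higher in line 240 than in line 352 and 6.26 higher in line 242 than in line 352 (adjusted p = 0.00861). Dusp10 was higher in the same pair of lines, by 2.04 and 2.39 (adjusted p = 0.0362). Spred2 was highest in line 242, 2.38 above line 352, with line 240 in between at 1.04 above it (adjusted p = 0.0161). Dusp8 (adjusted p = 0.0612) and Dusp6 (adjusted p = 0.145) did not pass, in spite of ranges of 5.26 and 4.36, and Spry1 ranged over 0.09 (adjusted p = 0.994). Without line 352 the number of members past the threshold was 0, and without line 242 it was 7.

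Levels were compared between genes per kilobase of exon. For Dusp1 the length used, 3311 bases, came from the longer annotated model. That is more than the stretch counted for it (26505590 to 26508519). Its values per kilobase are therefore too low, and its place in the order is not read. Over the 6 libraries Dusp2 had the highest mean, 22.0 ± 8.80 CPM per kilobase (SD), followed by Dusp10 at 13.8 ± 9.50, Spred2 at 8.67 ± 6.13, Dusp1 at 8.64 ± 7.43, Dusp4 at 6.58 ± 5.06, Dusp5 at 6.25 ± 4.90, Spry1 at 3.42 ± 0.290, Dusp8 at 2.92 ± 6.11 and Dusp6 at 1.42 ± 1.44. Dusp5 was above Spry1 in 6 of 6 libraries. Dusp2 was above Dusp10, Dusp10 above Spred2 and Spry1 above Dusp8 in 5 of 6, and the remaining neighbors traded places, with the higher mean above in 3 of 6. The mean of Dusp8 rested on the treated library of line 242, and over the other 5 libraries it was 0.437 ± 0.738 CPM per kilobase, below Dusp6 at 1.24 ± 1.54. Over those 5, Dusp4 at 5.90 ± 5.35 stood above Dusp1 at 5.86 ± 3.34 on the lengths used, and the other 5 genes kept their ranks.

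The libraries in which a gene is high can be compared with those of other genes by the correlation of log2 CPM over the 6 libraries, given as a description only, since libraries share lines and depth and the treated library of line 242 is among them. Dusp8 ran most closely with Prkd2, which encodes protein kinase D2 (r = 0.994), and Cd80 (r = 0.992). Dusp4 ran with Xist (r = 0.998) and St8sia1, a sialyltransferase gene (r = 0.998), and Dusp1 with B130024G19Rik (r = 0.999) and Gtpbp2 (r = 0.991). For Dusp2 the closest were Triap1 (r = 0.981) and Arhgdib (r = 0.973), for Dusp6 Hltf (r = 0.996) and Lvrn (r = 0.991), for Dusp10 Gpr171 (r = 0.996) and Zfp386 (r = 0.995), and for Spred2 Usp38 (r = 0.998) and Pop4 (r = 0.994). Dusp5 ran with the predicted genes Gm36936 (r = 0.999) and Gm43597 (r = 0.998). Spry1, which varied least, had the weakest matches, Zbtb49 (r = 0.932) and Gm26782 (r = 0.923).

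Other genes of the pathway were taken from 5 lists, in none of which a gene passed over 3 lines. For the counts in lines 240 and 352 that follow, the shares over all genes tested were 5.01% higher and 5.92% lower, and nothing particular to a list is read from its count. Of 12 other Dusp genes, 9 were tested in lines 240 and 352, and 0 were higher and 0 lower. The smallest p over 3 lines belonged to Dusp12, with a log2 fold change of 0.55 ± 0.27 (edgeR adjusted p = 0.827), and Dusp28, with −0.80 ± 0.47 (adjusted p = 0.832). Of 13 other Sprouty, Spred and Ras GTPase-activating genes, 10 were tested in lines 240 and 352, and Rasal3 rose (log2 0.46 ± 0.12, adjusted p = 0.0238) and Rasal1 fell (−0.76 ± 0.14, adjusted p = 0.00567). Both encode proteins of the family that returns Ras to its inactive form. Rasal3 was not higher in line 242, with 92.8 CPM in treated cells, against 97.7 CPM in the control. Rasal1 was lower in treated cells of all 3 lines, with 26.5, 3.64 and 53.8 CPM in treated lines 240, 242 and 352, against 37.6, 6.03 and 101 CPM in controls.

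In the Ras to ERK relay, all 18 genes were tested in lines 240 and 352, and 2 rose and 3 fell. Rasgrp1, the exchange factor that activates Ras downstream of the T cell receptor, fell by 0.81 on the log2 scale (SE 0.13, edgeR adjusted p = 0.00341), with 77.9, 40.0 and 17.7 CPM in treated lines 240, 242 and 352, against 122, 99.0 and 35.4 CPM in controls. It was lower in treated cells of all 3 lines, as were the T cell genes Cd3d and Dntt, whose part in this value was not tested. The ERK1 gene Mapk3 (log2 −0.54 ± 0.12, adjusted p = 0.0167) and the MEK1 gene Map2k1 (−0.41 ± 0.11, adjusted p = 0.0381) fell as well, and both were higher after treatment in line 242, which that fit leaves out. Hras (0.53 ± 0.15, adjusted p = 0.0449) and the MEK2 gene Map2k2 (0.40 ± 0.11, adjusted p = 0.0399) rose in lines 240 and 352. In line 242 Hras had 29.1 CPM in treated cells, against 37.7 CPM in the control, and Map2k2 had 81.9 CPM, against 79.0 CPM.

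Of 15 JNK and p38 relay genes, 14 were tested in lines 240 and 352, 0 rose and 1 fell. This was Map3k1, an upstream kinase of the JNK relay, at −0.74 ± 0.10 (edgeR adjusted p = 0.00131), with 102 and 94.8 CPM in treated lines 240 and 352, against 170 and 161 CPM in controls. In line 242 it had 65.5 CPM in treated cells, against 66.6 CPM in the control. Of 15 genes known to respond to ERK, 9 were tested there, and 1 rose and 0 fell. Jun, a component of AP-1, rose by 1.19 ± 0.34 (adjusted p = 0.0439), with 10 and 415 counts in treated lines 240 and 352, against 0 and 196 counts in controls, and it had 48 counts in treated line 242, against 6 in its control.

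**Figure D3:**
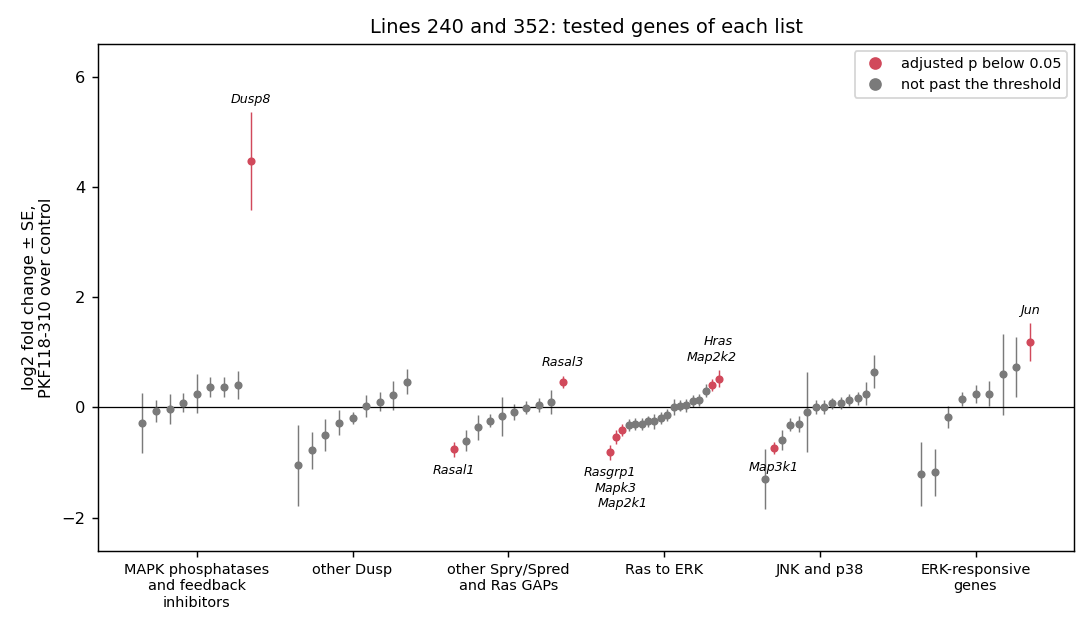
Log2 fold change ± SE, PKF over control, in lines 240 and 352 for the 9 genes and for the tested genes of 5 pathway lists, each point 1 gene, with genes past an edgeR adjusted p of 0.05 in red and named. Dusp8, at 4.47, lies far above all other points, of which the highest that passed is Jun at 1.19.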

How the data were processed

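Poly(A) RNA was made into stranded libraries, and the counts deposited by the authors are raw read counts per gene symbol without normalization. Per the submitters' processing notes, reads were handled with HISAT2 and HTSeq on mm10, and edgeR is listed too, whereas TopHat is the aligner in the study's methods. For tool versions, the strand setting and reads with several matches, the entry is "not given in the sources used here". According to the labels, files come as 2 lanes of 1 library, which were summed, although the study's supplement speaks of 2 separate control and 2 separate treated cultures per line. With 1 library per line and group and the line as a block, p-values of the fits rest on how far the treated-to-control difference varies among lines. This variation may be in part technical.

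Tests were run with edgeR 4.0.16 under R 4.3.3 (filterByExpr with the design matrix, TMM, quasi-likelihood F test, Benjamini-Hochberg over all genes tested). The 11064 genes kept held 99.6% of all counts and 93.3% of those in treated line 242. The cell line was a block, because both libraries of a line come from 1 animal, and their deviations from the group means correlated at 0.69, 0.42 and 0.82 in lines 240, 242 and 352. Each SE is the log2 fold change divided by the square root of F. Ratios within a line have exact conditional binomial intervals. Exon lengths and overlaps came from GENCODE vM21, coordinates from the files (mm10, counted from 1), and promoters from RefSeq.

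The fit was tested on simulated counts. Alternatives were no block, other scalings, DESeq2 1.42.0, edgeR's likelihood ratio test, other filters, each lane alone, each line left out and halved counts of line 352. All 9 members were named, with up to 3 genes per direction and list, or the 2 with the smallest p over 3 lines where none passed, and the 2 genes of at least 5 mean CPM most correlated with each member. Members, lists, the filter on low counts and the fit without line 242 were chosen with earlier results of these data known.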

Additional observations from a re-analysis of the deposited data

Results flagged for a closer look

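Dusp1 moved in opposite directions in 2 lines, each beyond counting error. Its treated-over-control CPM ratio was 23.5 in line 242 (41 and 10 counts) and 0.816 in line 352 (380 and 439 counts). The difference between the lines was not tested, since each has 1 library per group, and the treated library of line 242 had the lowest depth, 604984 counts, and the highest mitochondrial share, 11.8%.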

How the results depend on the processing

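The call of Dusp8 depended on the test. Over 3 lines, where 0 members passed, 1 was higher with DESeq2, with edgeR's likelihood ratio test, with no filter on low counts and with DESeq2 without independent filtering (chosen after seeing the data), and leaving out a line gave 0 to 1, the 1 without line 242. In lines 240 and 352, where 1 passed, the number was 0 with no replicate block and 0 with DESeq2 without independent filtering. The fit without the block, which ignores that libraries of a line are paired, lost all calls there (0 genes, against 1285 with it), and the cause was not tested. Dusp8 was left untested there by DESeq2's own filter, by a minimum of 10 counts in every library, by each lane alone and by halving the counts of line 352, so these gave no count of members. The filter with the design matrix was itself chosen because it keeps Dusp8. The filter by group, used in an earlier analysis of these data and added here as an alternative, kept 10331 genes over 3 lines and left Dusp8 out.

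Of all genes, 148 passed over 3 lines with DESeq2, 133 with the likelihood ratio test, 312 with no filter, 47 with DESeq2 without independent filtering and 3 to 1285 leaving out a line, the highest without line 242. In lines 240 and 352, 226 passed with DESeq2, 718 with at least 10 counts in every library, 753 with lane 2 alone and 153 with DESeq2 without independent filtering. Between lines, 5 members passed with the likelihood ratio test, 5 with no filter and 0 to 7 leaving out a line, and of all genes (791) 3375, 3009, 220 with at least 10 counts in every library, 1210 with lane 1 alone and 209 to 5257 leaving out a line.

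The sign of small changes was not stable, and none of these was a call. Over 3 lines, Dusp4 was −0.11 and Spry1 −0.26 in lane 1, Dusp6 −0.14 in lane 2, and Spry1 −0.0051 with no filter. Leaving out a line, Dusp1 lay between −0.067 (without line 242) and 2.23, Dusp4 between −0.10 (without line 240) and 0.25, Dusp6 between −0.28 (without line 242) and 1.23, and Spry1 between −0.065 (without line 240) and 0.22. In lines 240 and 352, Dusp1 was 0.00043 with DESeq2 without independent filtering, Dusp6 0.019 in lane 1, and Spry1 0.035 with no replicate block, 0.38 in lane 2, 0.0016 with line 352 halved and 0.0052 with DESeq2 without independent filtering. Of the other changes of single genes with treatment, 193 kept their sign and side of the threshold, and the rest were the changes of call of Dusp8 given above. Of the differences between lines, 95 kept their side, 12 came to pass and 4 no longer passed. The 27 ratios within a line moved by less than their counting interval with a prior count of 0.5 in place of 2.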

Other observations

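The other Dusp and Sprouty genes that fell below the filter on low counts in both fits were given no test. Spry2 had 2, 3 and 2 counts in treated lines 240, 242 and 352 and 0 in each control, and Spry4 had 2, 0 and 5 counts and 0 in each control. Spry3 had 0 counts in every library. Dusp23 had 2, 0 and 0 counts in treated lines 240, 242 and 352, against 8, 1 and 0 counts in their controls. Dusp18 had 1, 0 and 5 counts, against 0, 0 and 5 counts, and Dusp3 had 0, 2 and 0 counts, against 0 in each control. Dusp14, left out over 3 lines only, had 1, 0 and 13 counts, against 6, 3 and 21 counts. These genes went both ways on few reads, and no change is read from them.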
